A study of Saccharomyces cerevisiae with 2 samples.

Results

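The DNA described here lies within 10 kb of a listed centromere position on each of the 16 nuclear chromosomes of budding yeast, Saccharomyces cerevisiae. A centromere position was derived from the distance that the array files list between each nearby probe and the feature named CEN plus a number. All probes that list a centromere gave 1 position for it, which is the left end of the feature. Probes whose midpoint lay within 10 kb of it were taken, without regard to their values. This gave 1147 of 41282 nuclear probes, between 52 and 79 per centromere.

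The cells were strain MDY513, which carries a deletion of HTZ1, the locus that codes for the variant histone H2A.Z. They spent 4 hours in 4 µg/mL alpha factor, a pheromone that stops the cycle in G1, and were then moved to YP medium with 2% galactose. Chromatin was precipitated 180 min after galactose induction with antibodies against Flag and against Myc. Expression of H3-Myc is constitutive and that of H3-Flag begins with galactose, per the series' design, so a high Flag over Myc ratio marks DNA where more of the tagged H3 is recently made. Each array held the Flag precipitate in Cy3 and the Myc precipitate in Cy5, with no dye swap. The samples form 1 group of 2 replicate arrays of the same strain, genotype, treatment and time. As a check of the strain label, HTZ1 itself was covered by 1 probe on chromosome 15, from 303821 to 303880, and 0 of its 4 signals were well above background. Neither a strain with HTZ1 nor another time point was analysed here, so that nothing below is a comparison with H2A.Z present. Separate cultures are not mentioned in the labels, and p-values therefore measure only how far these arrays differ, a spread that may be technical.

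In budding yeast the centromere is a short, defined DNA element. It is wrapped with the histone H3 variant Cse4 (CENP-A in animals) in place of ordinary H3, and it is bound by Cbf1 and by the CBF3 complex, on which the kinetochore is built. The pericentromeric DNA on both sides is packed in ordinary H3 nucleosomes and carries genes, and it is where cohesin accumulates once the chromosomes have been replicated. The tags in this experiment are on H3, so that Cse4 itself was not measured.

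Unless another quantity is named, values are ratios, meaning log2 of Flag over Myc with the median used probe of each array set to 0, as the mean ± SD of the 2 arrays. A ratio of 0 does not mean equal amounts of both forms of H3. A probe was used if all 4 of its signals were well above background and none carried an outlier flag. A probe with any signal not well above background is called dim, and one with no signal well above it is called dark. Of the 1147 pericentromeric probes, 943 (82.2%) were used, 129 (11.2%) were dim and 75 carried an outlier flag only. Of the dim ones 34 were dark (2.96% of pericentromeric probes, against 2.40% of the other nuclear probes). In the rest of the genome 9.56% of probes were dim. The used probes numbered between 39 and 67 per centromere, and 709 of them lay in reading frames, 153 in promoters (within 500 bp upstream of a start codon), 50 between convergent genes and 31 in other DNA. The arrays correlated across the used pericentromeric probes at Pearson r = 0.96 and Spearman rho = 0.96, a description across probes, which are not replicates. The median SD between arrays for a probe was 0.15, against an SD of 1.15 across the probes.

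The DNA nearest the centromere gave little signal from either form of H3. Within 150 bp of a listed position the arrays hold 18 probes, at least 1 for each of the 16 centromeres, and none of these probes lies in a reading frame. Of these probes 14 (77.8%) were dim and 7 (38.9%) were dark. In the other DNA outside reading frames, more than 10 kb from a centromere, 25.5% of probes were dim and 7.04% were dark. The processed Flag signal of the 18 probes averaged -4.01 and -2.96 on the arrays, on a log2 scale relative to the channel median, against -0.97 and -0.68 in the other DNA outside frames. Their Myc signal averaged -4.19 and -3.75, against a mean of -1.88 ± 0.17 in the other DNA outside frames. The innermost DNA was thus lower than intergenic DNA elsewhere in both channels and on both arrays. The scanning software enters surrogate values for signals not above background, so that the averages of these mostly dim probes are uncertain in size. No input DNA was hybridised to these arrays, so that the amount of H3 and the behaviour of the probes cannot be told apart.

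The signal of each channel was also set against its surroundings. The local difference is the log2 signal of a probe minus the mean of all nuclear probes 500 to 2000 bp away, dim and outlier-flagged ones included. Flag signal was below its surroundings at 18 of the 18 innermost probes (limma, adjusted p under 0.05 over all 41163 nuclear probes with a value), where 30.7% of all probes were below. The Myc signal was below its surroundings at 17 of the 18, where 29% of all probes were below. The exception was the probe 106 bp left of the listed position of CEN14 (chromosome 14, 628625 to 628684), which carried an outlier flag. Its Myc signal was 0.63 and 0.78 above its surroundings on the arrays (adjusted p = 0.08), while its mean Flag signal differed from its surroundings by -1.28. None of the 18 was above its surroundings by the test in either channel, where 36% of all probes were above in Flag and 37.2% in Myc. The median local difference of the 18 probes was -3.52 ± 0.68 for Flag and -3.49 ± 0.61 for Myc. Since 14 of the 18 were dim, the size of that median is uncertain in both channels. Of all nuclear probes, 3.61% were as far below their surroundings in Flag as that median and 5.88% in Myc. These shares are over all probes, and 67.6% of the probes beyond 10 kb lie in reading frames. Coding probes there averaged 0.32 in Flag and 0.41 in Myc, above the DNA outside frames. No share was taken over probes outside frames alone, so these shares do not show what is particular to centromeres.

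Both signals were nearer to the genome-wide levels in each further bin up to 1000 bp. From 150 to 250 bp, where 4 of 16 probes were dim, Flag signal averaged -1.80 ± 0.36 and Myc signal -2.71 ± 0.30 relative to the channel medians. From 250 to 500 bp, where 8 of 32 probes were dim, Flag averaged -0.86 ± 0.17 and Myc -1.89 ± 0.17, which is close to the mean of the other DNA outside frames (-0.83 ± 0.21 and -1.88 ± 0.17). From 500 to 1000 bp 3 of 60 probes were dim, Flag averaged 0.12 ± 0.05 and Myc -0.38 ± 0.11, against -0.05 ± 0.07 and -0.33 ± 0.01 more than 20 kb from any centromere. The kind of DNA changed with distance as well. Of the 54 used probes from 500 to 1000 bp, 41 lie in reading frames, which are brighter across the genome, against 0 of the 18 probes within 150 bp. Distance and kind of DNA were not separated here. Probes within 150 bp of the listed position of a replication origin were dim in 21.3% of 61 cases, and those within 150 bp of a tRNA gene in 60.2% of 337. The probes by tRNA genes averaged -2.41 ± 0.36 in Flag and -3.40 ± 0.14 in Myc, and 25.8% were dark. Those by origins averaged -0.56 ± 0.15 and -1.65 ± 0.13, and 8.20% were dark. Low signal in both channels was thus found by tRNA genes as well. These are shares and means of probes on the same 2 arrays, and no test was made between them.

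**Figure D1:**
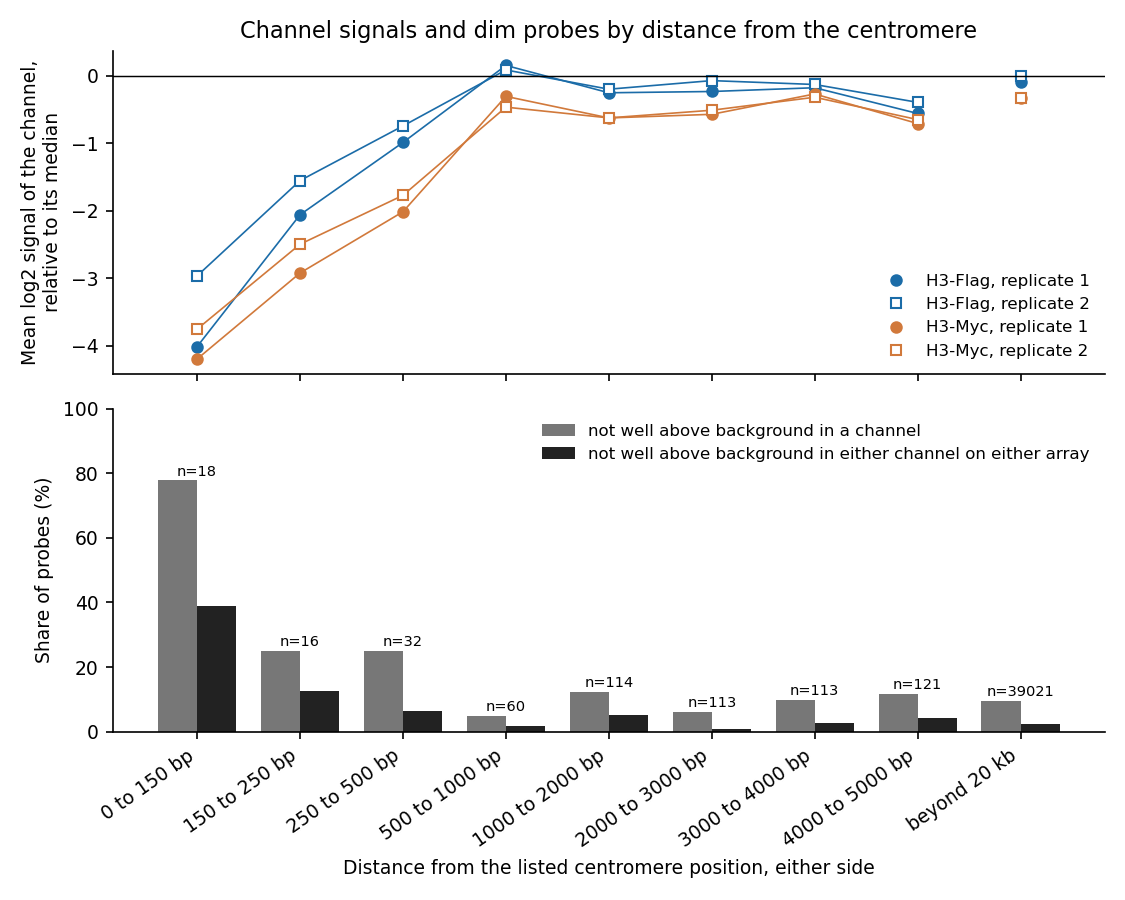
The upper panel plots the mean log2 signal of each channel relative to its own median (Flag blue, Myc orange; filled circles replicate 1, open squares replicate 2) by distance from the listed centromere position, with all other nuclear probes beyond 20 kb at the right. The lower panel plots the share of probes that were dim (grey) or dark (black); 77.8% of the 18 probes within 150 bp were dim, against 9.51% beyond 20 kb.

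The probe nearest to each centromere on either side was followed one by one. Of these 32 probes, 9 were used, 18 were dim (9 of them dark) and 5 carried an outlier flag only. The probe 50 bp right of the listed position of CEN8 (chromosome 8, 105601 to 105660, in the promoter of OSH7, an oxysterol-binding protein gene) was dark. Its Flag signal was -5.17 and -4.41 and its Myc signal -5.69 and -5.56 relative to the channel medians. The signals of this and the other dark probes are not well above background and may be surrogate values, so that their size is uncertain. The probe 69 bp left of CEN16 (chromosome 16, 555856 to 555915, in the promoter of CIT3, a mitochondrial citrate synthase gene) was dark as well, with Flag signals of -5.09 and -4.18 and Myc signals of -5.33 and -5.19. On chromosome 6 the contrast was between neighbours. The probe 127 bp right of CEN6 (148602 to 148661) was dark, at -4.95 and -4.09 in Flag and -5.90 and -5.35 in Myc, while the probe 239 bp left of CEN6 (148236 to 148295, in DEG1, a tRNA pseudouridine synthase gene) had Flag signals of 0.89 and 0.69 and Myc signals of -0.69 and -0.79.

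Among the 18 probes within 150 bp, 2 passed both filters and gave a ratio. The probe 135 bp left of CEN7 (chromosome 7, 496759 to 496818, in the promoter of ERG26, a sterol synthesis gene) had ratios of 0.29 and 0.09. The probe 99 bp left of CEN10 (chromosome 10, 436095 to 436154) had ratios of 0.29 and -0.09. Both lay near the array median and neither passed the test (limma, adjusted p = 0.29 and 0.58). The ratios described next therefore come almost wholly from DNA farther than 150 bp from the listed positions.

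Beside the centromeres the ratio was high. Within 500 bp of the listed positions lie 66 probes, of which 34 were used, 26 were dim (11 dark) and 6 carried an outlier flag only. Each of the 16 centromeres had at least 1 used probe there. A probe entered only if it was bright in both channels, so these are the brighter probes and not all of the core DNA. The 34 used probes averaged 1.03 ± 0.04, against 0.24 ± 0.01 for the 909 used probes from 500 bp to 10 kb. The difference was 0.79 ± 0.05, a ratio 1.73-fold as high, and 0.47 when the core was taken as 1000 bp. Of the 34 probes, 28 were above the array median (82.4%; limma, adjusted p under 0.05 over 34899 nuclear probes, where 40.5% of all probes were above) and 1 was below (40.1% of all probes). The ratio of a probe was above that of the used probes 500 to 2000 bp away for 19 of the 34 (55.9%), where 36.2% of all probes were above, and below it for 2, where 40.5% of all were below.

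Much of that difference went with the kind of DNA. Of the 34 used core probes 26 lie outside reading frames, where ratios are higher across the genome. The counts of core probes above the array median and above their surroundings were set against all probes and not matched for this. Of all promoters, each averaged over its used probes, 75.9% were above the array median. Outside frames the core probes averaged 1.12 ± 0.04, against 0.99 ± 0.05 for the 208 flank probes outside frames and 1.04 ± 0.07 for 8882 such probes in the rest of the genome. The difference of 0.13 ± 0.01 from the flank turned to -0.040 with dim probes kept and was 0.0022 with outlier-flagged spots kept, 0.035 with loess and 0.037 with a core of 300 bp. It was 0.038 without CEN6 and 0.065 without CEN3. The sign of the difference outside frames thus changed with the filters, and 2 centromeres held much of its size. In reading frames the 8 core probes averaged 0.74 ± 0.04, against 0.02 ± 0.03 for 701 flank probes, a difference of 0.72 ± 0.07. It was 1.15 with a core of 300 bp and 0.32 with one of 1000 bp. The in-frame difference was 0.47 without CEN6, whose pair of core probes in DEG1 had 1.51 and 1.48 (348 bp left) and 1.57 and 1.41 (239 bp left). The other 6 were in TFC3, EFM5, YIL001W, YPT7, DOM34 and RRP6. Of these YIL001W was highest, at 1.80 and 1.76 (363 bp left of CEN9), and RRP6, an exonuclease of the nuclear exosome, was lowest, at -0.67 and -0.46 (310 bp right of CEN15).

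The individual cores differed widely. Centromere by centromere, the mean of the used core probes was above that of its flank on both arrays at 14 of 16 centromeres. With each centromere weighted equally the difference was 0.72 with an SD of 0.73 over the 16 centromeres, from -1.20 at CEN14 to 1.80 at CEN6. The core and flank of a centromere were not matched for the kind of DNA in these comparisons. Of the 16 centromeres 5 had only 1 used core probe, and over the other 11 the difference was 0.84 with an SD of 0.45 and a range of 0.13 to 1.80. The highest single core probe lay 311 bp right of CEN6 (chromosome 6, 148786 to 148845, in the promoter of LOC1, an mRNA localisation and ribosome assembly gene), with 3.09 and 2.93. The probe 177 bp left of CEN3 (chromosome 3, 114176 to 114235) had a mean of 2.25 ± 0.36. The replication origin ARS308 is listed 64 bp left of the same CEN3 position, so that this probe is also 113 bp from an origin. At CEN5 each of the 4 used core probes was above the array median, with means of 0.81 to 1.87. At CEN14 the only used core probe, 366 bp left in DOM34, a ribosome rescue factor gene, had -0.31 and -0.34.

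**Figure D2:**
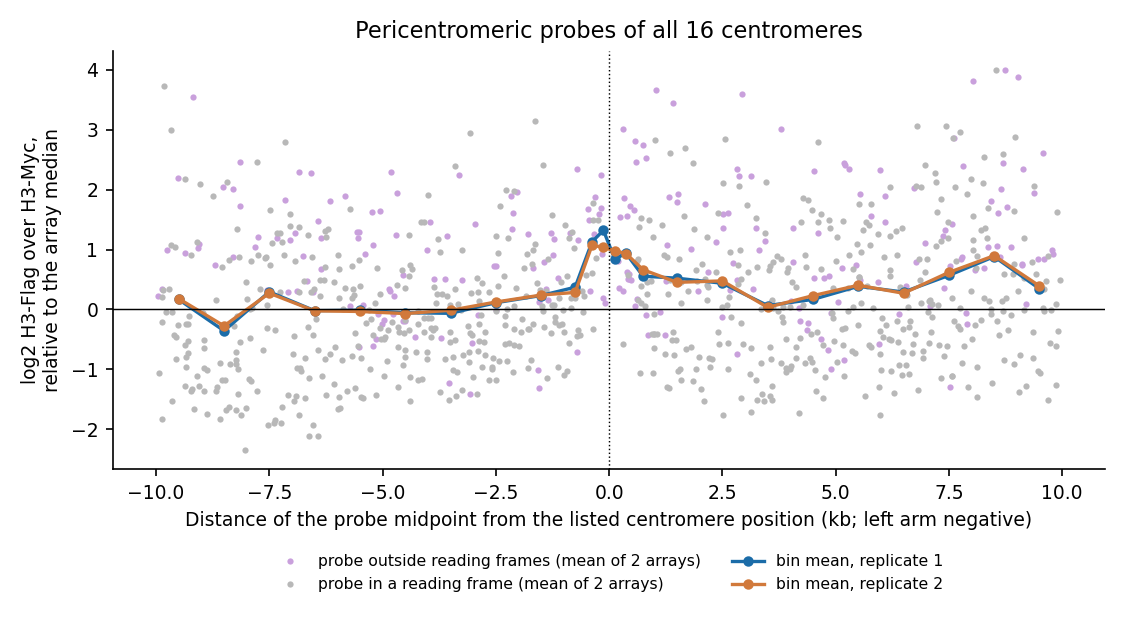
Each dot is a used pericentromeric probe (purple outside reading frames, grey in a frame) placed by its distance in kb from the listed position of its own centromere, left arm negative, with its log2 ratio of Flag to Myc (mean of 2 arrays; 0 is the array median). Lines join the means of distance bins on replicate 1 (blue) and replicate 2 (orange), which are highest in the 2 bins within 500 bp on the left, lower on the right arm than on the left in those bins and higher on the right arm in the 10 bins from 500 bp to 10 kb.

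Averaged over both sides, the ratio declined over the first 4 kb and did not stay low. It was 1.08 ± 0.09 from 0 to 250 bp (11 used probes), 1.01 ± 0.02 from 250 to 500 bp, 0.48 ± 0.02 from 500 to 1000 bp, 0.36 ± 0.02 from 1 to 2 kb and 0.28 ± 0.02 from 2 to 3 kb. From 3 to 4 kb it was 0.00 ± 0.01, from 7 to 8 kb 0.46 ± 0.01, and from 9 to 10 kb 0.27 ± 0.02. Beyond the 10 kb limit it was 0.39 ± 0.01 from 10 to 15 kb and 0.23 ± 0.00 from 15 to 20 kb. The bins thus moved by more than the spread between the arrays, both inside and outside 10 kb. Both arrays read the same probes, so that spread does not cover which genes fall in a bin. The kind of DNA changed along the bins as well. From 0 to 250 bp 1 of the 11 used probes lies in a reading frame, and from 250 to 500 bp 7 of 23. From 500 to 1000 bp it is 41 of 54, and from 3 to 4 kb 80 of 96. Ratios are higher outside frames across the genome, and the bins were not matched for this. The last used probe inside the limit (chromosome 4, 439722 to 439781) had 0.38 and 0.07, and the first outside it (chromosome 9, 365600 to 365659) had -0.11 and -0.11.

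Reading frames alone declined over the first 4 kb as well and were high again from 7 to 8 kb. Their bins from 0 to 250 bp and from 250 to 500 bp hold only 1 and 7 used probes. Coding probes within 2 kb averaged 0.24 and 0.25 on the arrays (120 probes), against -0.11 and -0.08 for coding probes 3 to 7 kb away (305 probes), a difference of 0.34 ± 0.02. The range of 3 to 7 kb was chosen after seeing the bins, and it ends before the coding bin from 7 to 8 kb, which had 0.31 and 0.38 (74 probes) and so a higher mean than the coding probes within 2 kb. Leaving out 1 centromere at a time kept it between 0.25 and 0.42. Promoter probes had no such order, with 0.84 ± 0.07 from 1 to 2 kb, 1.37 ± 0.04 from 2 to 3 kb, 0.66 ± 0.14 from 4 to 5 kb and 1.75 ± 0.05 from 8 to 9 kb.

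The arms differed, in 1 direction within 500 bp and in the other beyond it. Over the whole window the right side averaged 0.44 and 0.46 (478 probes), against 0.09 and 0.09 on the left (465 probes), a difference of 0.36 ± 0.01. The right was higher on both arrays in each of the 10 bins from 500 bp to 10 kb. In both bins of the core it was lower on both arrays, with 0.91 ± 0.10 on the right and 1.18 ± 0.20 on the left from 0 to 250 bp (4 and 7 probes). From 250 to 500 bp the right had 0.94 and 0.93 on the arrays and the left 1.13 and 1.08 (13 and 10 probes). The largest gap between matching bins was from 8 to 9 kb, with 0.89 ± 0.01 on the right and -0.31 ± 0.06 on the left. The right arm was higher on both arrays at 11 centromeres and lower on both at 4. Over the 16 centromeres the difference had a mean of 0.37 and an SD of 0.62, and leaving out 1 centromere at a time kept the pooled value between 0.29 and 0.42. Left and right follow the numbering of the chromosomes and are not a biological orientation of the element. Distances run from the left end of the element, which itself lies right of the listed position. Close to it the bins of the arms are therefore not mirror images. The arms were not compared again with the position moved by 60 bp, so the part of this in the difference within 500 bp was not tested.

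Across the whole 20 kb window the pericentromeric DNA differed little from the rest of the genome. Its 943 used probes averaged 0.27 and 0.28, against 0.18 and 0.18 for 33956 other used probes. The difference of 0.094 ± 0.006, a 1.07-fold ratio, was larger than the spread between the arrays. It was small against the spread between centromeres, since pericentromeric minus remaining DNA of the same chromosome had a mean of 0.12 and an SD of 0.32 over the 16 centromeres. Leaving out 1 centromere at a time moved the pooled value between 0.059 and 0.13, with the lowest values of 0.059 without CEN3 and 0.061 without CEN14. Of the 943 probes, 421 (44.6%) were above the array median (40.5% of all probes) and 309 (32.8%) were below (40.1% of all probes), while 213 did not pass. The pericentromeric ratios were less spread, with a range from the 5th to the 95th percentile of -1.42 to 2.33, against -1.63 to 2.71 elsewhere.

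With the limit at 10 kb, the small difference was positive in reading frames and promoters and negative in the remaining DNA. Pericentromeric coding probes averaged 0.01 and 0.05, against -0.15 and -0.11 for coding probes elsewhere, a difference of 0.16 ± 0.00. It was positive on both arrays at 12 of 16 centromeres and negative on both at 3, when set against the coding probes of the same chromosome. Set that way, the coding difference had a mean of 0.21 and an SD of 0.33 over the 16 centromeres, from -0.37 to 0.89. Pericentromeric promoter probes averaged 1.21 ± 0.04, against 1.14 ± 0.06 elsewhere, a difference of 0.073 ± 0.025. Probes between convergent genes averaged 0.35 ± 0.09, against 0.47 ± 0.10 elsewhere. Probes in other DNA averaged 1.03 ± 0.05, against 1.16 ± 0.04 elsewhere. The promoter difference was -0.14 within a 5 kb window, 0.024 with loess and 0.019 with dim probes kept. The difference in other DNA was positive within 5 kb (0.029) and within 20 kb (0.089), so that its negative sign was found at the 10 kb limit alone among the 3 windows, and it was -0.21 with outlier-flagged spots kept and -0.19 with loess. Between convergent genes it stayed negative in the 3 windows but was -0.067 with dim probes kept and -0.064 within 20 kb.

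Single centromeres ranged from well above to below the array median. The highest mean within 10 kb was at CEN14, with 0.81 and 0.89 over 50 used probes, against 0.17 ± 0.02 for the rest of chromosome 14. CEN3 followed with 0.71 and 0.71 (67 probes), against 0.09 ± 0.00 for the rest of chromosome 3, and CEN5 with 0.68 and 0.60 (66 probes), against 0.28 ± 0.00. The lowest mean was at CEN15, with -0.22 and -0.23 over 64 probes, against 0.20 ± 0.01 for the rest of chromosome 15. CEN12 had -0.12 and -0.11, against 0.20 ± 0.00 for the rest of its chromosome, and CEN7 had -0.11 and -0.05, against 0.23 ± 0.02. In all, 13 centromeric windows were above 0 on both arrays and 3 below. A mean above 0 was usual elsewhere too, since the other used probes of the genome averaged 0.18. The mean of the rest of the chromosome was below 0 for chromosome 1 only (-0.07 ± 0.03). Against its own chromosome the window was higher on both arrays at 9 centromeres and lower on both at 5. The SD between arrays was at most 0.08 for any window. CEN16, CEN11, CEN10, CEN2 and CEN1, with means between 0.17 and 0.22, lay within that spread of each other, whereas the 3 highest windows lay above these, and the 3 lowest below them, by more than that spread.

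**Figure D3:**
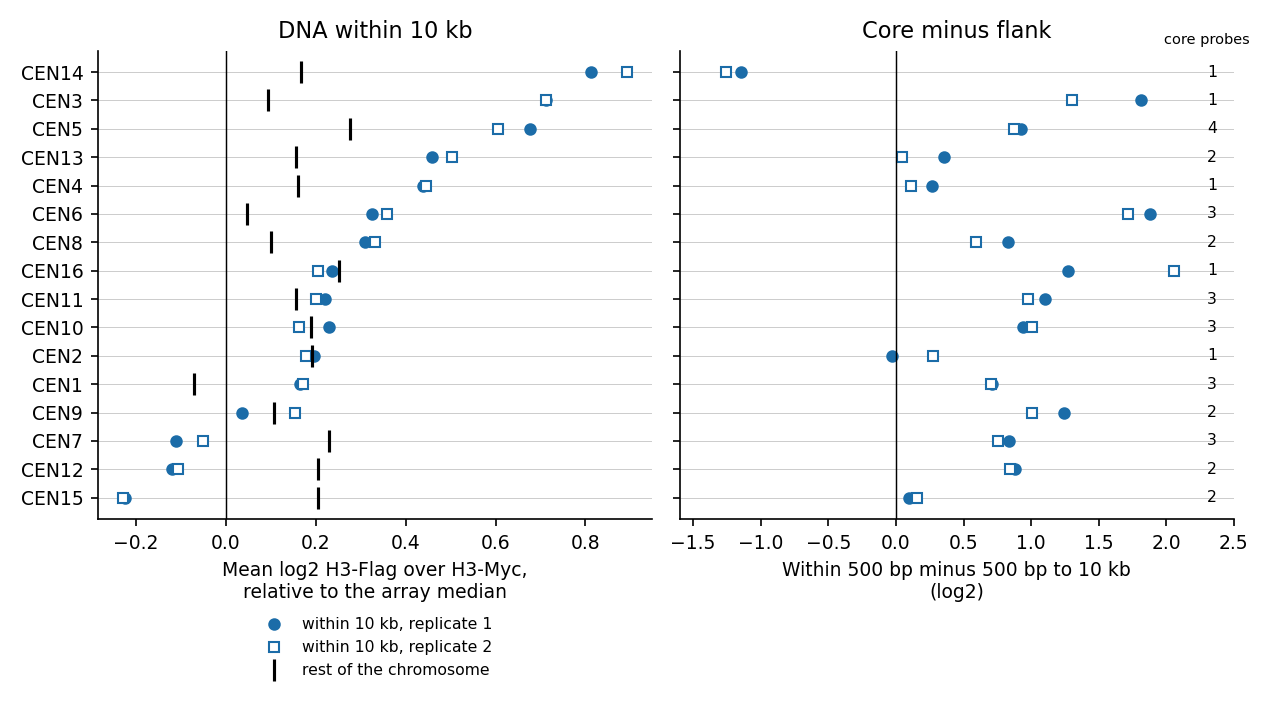
The left panel plots the mean log2 Flag over Myc of used probes within 10 kb of each centromere on replicate 1 (filled) and replicate 2 (open), with the mean of the rest of the chromosome as a black tick; CEN14 is highest and CEN15 lowest. The right panel plots, for the same centromeres and arrays, the mean within 500 bp minus the mean from 500 bp to 10 kb, with the number of used core probes at the right edge; CEN14, with 1 core probe, is the only centromere below 0 on both arrays.

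The highest single probes clustered in a few places. The 3 highest lay in and upstream of YCR006C, a small reading frame right of CEN3, with 3.89 and 4.12 (chromosome 3, 122886 to 122945), 4.09 and 3.91 (123097 to 123156) and 3.76 and 4.02 (123379 to 123438). A tRNA gene, tP(AGG)C, is listed 166 bp beyond the last of these. The promoter of the neighbouring CIT2, which codes for peroxisomal citrate synthase, had 3.82 ± 0.44 (122396 to 122455). On chromosome 5 a probe 1035 bp right of CEN5 (152966 to 153025) had 3.73 and 3.61, and the promoter of MNN1, a mannosyltransferase gene, 1417 bp from CEN5, had 3.49 and 3.40. MIT1, a regulator of filamentous growth left of CEN5, held a probe with 3.76 and 3.71 (142117 to 142176). On chromosome 14 a probe 2931 bp right of CEN14 (631662 to 631721) had 3.85 and 3.34 and lay 155 bp from the listed position of tP(AGG)N. A probe in the promoter of GIS4 (chromosome 13, 258828 to 258887), 301 bp from the listed position of tS(AGA)M, had 3.34 and 3.74. HTB2, a gene for histone H2B, held a probe 1632 bp left of CEN2 (chromosome 2, 236548 to 236607) with 3.21 and 3.08. Each of these 10 probes was above the array median with a limma adjusted p of 2.28e-30 or less. The very small p-values come from a spread that limma shares across all probes.

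tRNA genes lay beside 3 of these 10 probes. Within 10 kb of a centromere 6 tRNA genes, 3 replication origins, 2 snoRNA genes and 12 retrotransposon or long terminal repeat features are listed. The used probes nearest to the other tRNA genes had 1.74 and 1.99 (tN(GUU)N2 on chromosome 14), 0.56 and 0.49 (tF(GAA)F on chromosome 6) and 0.24 and 0.05 (tF(GAA)P1 on chromosome 16, adjusted p = 0.42). Those nearest to the origins ARS307 and ARS1015 had 1.20 ± 0.09 and 2.05 ± 0.07. Both windows with tP(AGG) genes, at CEN3 and CEN14, were the highest of the 16; the part of the tRNA genes in those means was not tested.

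The lowest probes were all in reading frames, and 5 of the 10 were in SIN3, which codes for a scaffold of the Rpd3 histone deacetylase, left of CEN15. The lowest (chromosome 15, 318518 to 318577) had -2.53 and -2.17. VPS8, a vacuolar sorting gene left of CEN1, held 2 probes, with -2.07 and -2.14 (chromosome 1, 144995 to 145054) and -2.36 and -1.85 (144802 to 144861). UTP20, a ribosome assembly gene left of CEN2, held 2, with -2.04 and -1.82 (chromosome 2, 230648 to 230707) and -1.99 and -1.67 (228306 to 228365). CYR1, the adenylate cyclase gene left of CEN10, held 1, with -1.96 and -1.73 (chromosome 10, 428810 to 428869). Each was below the array median with a limma adjusted p of 4.21e-17 or less, and each lay more than 6 kb from its centromere.

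Reading frames were then averaged, each over its used probes. Of 174 frames with a used probe within 10 kb, 77 (44.3%) were above the array median by limma at an adjusted p under 0.05 (39.1% of all 5564 frames) and 64 (36.8%) were below (42.9% of all frames), while 33 did not pass. Their median was 0.07, against -0.06 for all frames. The 10 highest and 10 lowest frames each passed with a limma adjusted p of 0.000148 or less.

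Among the highest frames, YCR006C (1 probe) had 3.89 and 4.12. SHU1, a DNA repair gene left of CEN8 (chromosome 8, 98339 to 98791; 1 probe), had 2.81 and 2.79. HTB2 (chromosome 2, 236496 to 236891) had 2.87 and 2.69. The frame of HTB2 has a near-identical copy, HTB1, whose DNA could bind the same probes. CIT1, the mitochondrial citrate synthase gene immediately right of CEN14 (chromosome 14, 629623 to 631062; 3 probes), had 2.87 and 2.38. CIT2 had 1.89 and 2.93 over 5 probes, the widest spread between arrays of these frames (2.41 ± 0.74), and CIT1 and CIT2 are related in sequence. GPA1, the G protein subunit of the pheromone pathway, had 2.36 and 2.32 (chromosome 8, 113494 to 114912; 4 probes). RCR1 (2.54 ± 0.07; 1 probe), YMR001C-A (2.13 ± 0.38; 1 probe), the mitochondrial carrier gene PET8 (2.10 ± 0.20) and EFB1, a translation elongation factor gene (2.04 ± 0.11), completed the 10. These frames lay from 1021 bp (CIT1) to 8533 bp (YCR006C) from their centromeres by their nearest used probe.

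Among the lowest frames, SIN3 had -1.38 and -1.35 over 12 probes, a ratio 2.57-fold below the array median. UTP20 had -1.28 and -1.28 over 19 probes, of which 17 lie within 10 kb. RFA1, the large subunit of replication protein A right of CEN1, had -1.06 and -1.02, and CYR1 had -0.99 and -0.97 over 18 probes. LAG1, a ceramide synthase gene, had -0.97 ± 0.03, ERG26 -0.93 ± 0.12, the cullin gene CUL3 -0.93 ± 0.04, VRL1 -0.86 ± 0.04, RRP6 -0.83 ± 0.03 and NCR1, a sterol transport gene, -0.82 ± 0.18. Of these, RRP6 starts closest, with its first used probe 310 bp from CEN15, and ERG26 follows, 876 bp from CEN7. Low ratios in frames were thus also found close to CEN15 and CEN7.

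Promoters were high beside centromeres as they were elsewhere. Of 133 promoters with a used probe within 10 kb, 111 (83.5%) were above the array median (75.9% of all 4534 promoters) and 8 were below (6.99% of all), with a median of 1.02, against 0.98 for all promoters. Probes between divergent genes count for both. The highest were the promoters of YCR006C (3.94 ± 0.03), CIT2 (3.82 ± 0.44), MNN1 (3.44 ± 0.06), YMR001C-A (3.01 ± 0.09) and GIS4 (2.87 ± 0.02). The lowest were those of YCL001W-A, left of CEN3, with -1.34 and -1.30, VRL1 with -1.27 and -1.20, YCL001W-B, also left of CEN3, with -0.51 and -0.92, DNM1, a mitochondrial fission gene left of CEN12, with -0.55 and -0.57 (0.043 with normexp background correction), and RPN11, a proteasome subunit gene right of CEN6 that shares its promoter probe with YPI1, with -0.24 and -0.76. These 10 passed with a limma adjusted p of 0.00389 or less. Of them, only the promoters of YCR006C and GIS4 had more than 1 used probe.

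The promoter was above the frame on both arrays in 100 of the 130 genes with both values (76.9%), against 77.2% of all 4385 such genes, and below it on both in 17 (13.1%), against 14.7% of all such genes. The mean difference was 0.91 ± 0.04, against 0.89 ± 0.10 for all genes. MNN1 and SIN3 had promoters far above their frames, whereas promoter minus frame was -1.37 and -1.61 in GPA1. It was also negative in CIT1, at -1.56 and -0.48, and in HTB2, at -0.92 and -0.84.

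**Figure D4:**
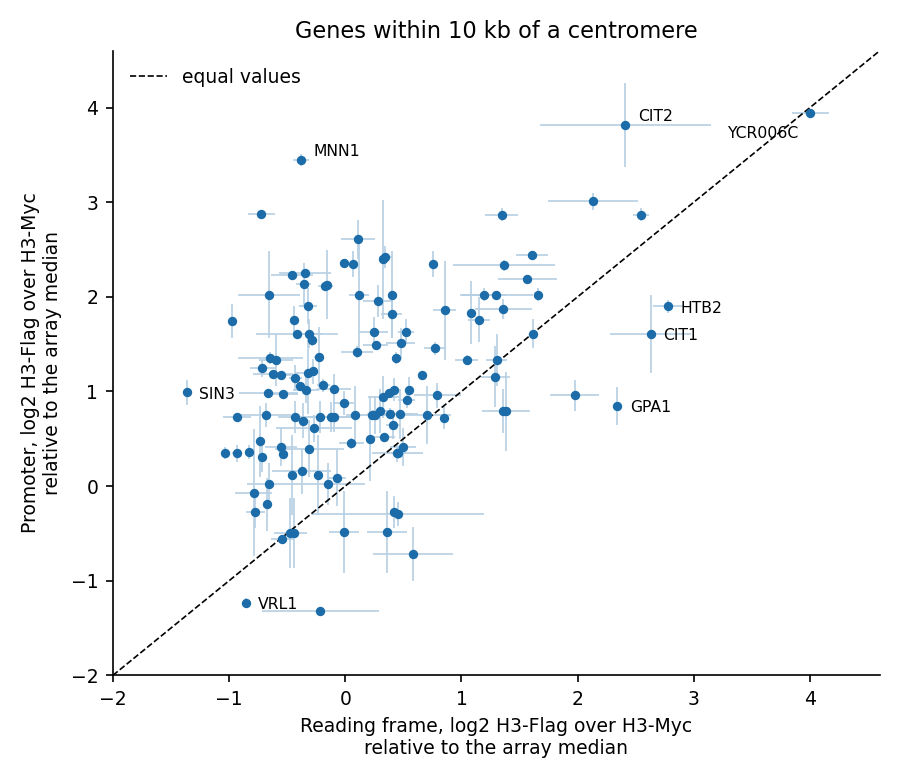
Each point is 1 of the 130 genes within 10 kb of a centromere with a used probe in both regions, placed by the log2 ratio of Flag to Myc of its reading frame (horizontal) and promoter (vertical), where 0 is the array median, with the SD of the 2 arrays as bars. Points above the dashed line of equal values have the higher ratio in the promoter, as 100 genes had on both arrays.

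The genes for the proteins that act at centromeres were read from a list of 36 kinetochore and cohesin genes. Of these, 1 had a used probe within 10 kb of a centromere, which was MCD1, a cohesin subunit gene left of CEN4, whose promoter had 0.71 and 0.51. The frame of MCD1 had -0.50 and -0.04 and did not pass the test (limma, adjusted p = 0.078). Of the 35 measured frames, 10 were above the array median (39.1% of all frames), 19 were below (42.9% of all) and 6 did not pass, with a median of -0.29. SPC25, an Ndc80 complex subunit, was highest, with 3.47 and 3.76, and CBF1, the factor that binds the centromere element, followed with 2.43 and 2.89. CSE4, the gene for the centromeric H3 variant, had 0.59 and 0.72. The cohesin subunit gene SMC3, with -0.88 and -1.02, and the cohesin loader gene SCC2, with -0.91 and -0.96, were lowest.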

How the data were processed

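Histone H3 carrying a Flag or a Myc tag was measured by chromatin immunoprecipitation and 2-colour tiling arrays in 1 group of 2 replicates. Per the file headers, the authors made the spot intensity values in Agilent Feature Extraction 8.5.1.1, using spatial detrending, dye normalization and surrogate values for signals not above background. The deposited value table holds log2 red over green (Myc over Flag) processed signals, uncentred, a scale and direction found by setting it against the scanner intensities, and its sign was turned here. No spot was saturated.

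From the processed intensities, log2 Flag over Myc was taken for each array, less the median over used nuclear probes (-0.46 on both arrays). Of 41282 nuclear probes, 34899 were used, after removal of 3964 dim ones and of 2419 others that carried an outlier flag. Probes are 60 bp long and start 267 bp apart (median). Coordinates are those of the files, whose genome build was not stated. Frame ends use lengths from the RefSeq gene table (assembly R64), which named 5927 of 6593 listed frames. Each feature was placed at its left end, from which the files count distances.

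Tests used limma 3.58.1 in R 4.3.3 (lmFit on an intercept, eBayes, Benjamini-Hochberg over all nuclear probes, frames or promoters at 0.05), checked on simulated data. They ask whether a feature lies off the array median or off its surroundings. Group means of probes have no p, since 2 arrays allow no exact two-sided sign-flip p below 0.5. The pericentromeric DNA and the gene list were chosen with earlier results of these data known. Named items are the nearest probe on each side of a centromere, the 10 highest and 10 lowest probes and frames, the 5 highest and 5 lowest promoters, the 3 highest and 3 lowest centromeres, the 2 highest and 2 lowest genes of the kinetochore and cohesin list with CSE4, and the probes next to the 10 kb limit. Core probes, listed tRNA genes and origins, and genes with promoter below frame were named besides these after their values were seen. The precision is limited by the 2 arrays.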

Additional observations from a re-analysis of the deposited data

How the results depend on the processing

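Alternatives were normexp background correction, loess within arrays, arrays scaled to equal spread, dim probes kept, outlier-flagged spots kept, the deposited value table, windows of 5 and 20 kb, cores of 300 and 1000 bp, and each replicate left out. The cause of a change was not tested where none is named. The splits of the core by reading frame, the arms, the coding bins, the single-channel tests, a centromere position moved by 60 bp and leaving out centromeres were added after seeing the data.

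The core exceeded its flank under every alternative run, by 0.71 with normexp, 0.69 with loess, 0.60 with dim probes kept, 0.65 with outlier-flagged spots kept, 0.47 with a core of 1000 bp, 0.79 with the position moved by 60 bp, and 0.75 to 0.82 leaving out a replicate. In reading frames it did so by 0.61 with normexp, 0.86 with loess, 0.63 with dim probes kept, 1.15 with a core of 300 bp, 0.32 with a core of 1000 bp, and 0.67 to 0.76 leaving out a replicate. Outside frames the difference was 0.11 with normexp, 0.035 with loess, -0.040 with dim probes kept, 0.0022 with outlier-flagged spots kept, 0.037 with a core of 300 bp, 0.18 with a core of 1000 bp and 0.13 to 0.14 leaving out a replicate.

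The difference of all pericentromeric from other probes was 0.082 with normexp, 0.11 within 20 kb, and 0.090 to 0.099 leaving out a replicate. In reading frames it was 0.13 with normexp, 0.18 with loess, 0.17 with dim probes kept, 0.17 within 5 kb, 0.13 within 20 kb and 0.16 with either replicate left out. In promoters it was 0.024 with loess, 0.019 with dim probes kept, -0.14 within 5 kb and 0.055 to 0.090 leaving out a replicate. Between convergent genes it was -0.093 with normexp, -0.18 with loess, -0.067 with dim probes kept, -0.17 with outlier-flagged spots kept, -0.10 within 5 kb, -0.064 within 20 kb and -0.13 to -0.11 leaving out a replicate. In other DNA it was -0.095 with normexp, -0.19 with loess, -0.10 with dim probes kept, -0.21 with outlier-flagged spots kept, 0.029 within 5 kb, 0.089 within 20 kb and -0.13 to -0.12 leaving out a replicate.

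Counts of calls scaled with the window, by construction: 209 probes above and 152 below within 5 kb, 819 and 645 within 20 kb, and 39 frames above and 36 below within 5 kb, 139 and 129 within 20 kb. The numbers tested in these windows are not given here, so that these counts show no share. Of all probes 40.5% were above and 40.1% below, and of all frames 39.1% were above and 42.9% below. Core probes above their surroundings numbered 30 of 58 with dim probes kept (51.7%, against 55.9% of the 34 used). Of all probes, 35.5% were above under that setting. Core probes below their surroundings numbered 7 of 40 with outlier-flagged spots kept (17.5%, against 5.88% of the 34 used). Under that setting 40.1% of all probes were below. No other count moved by over 1.5 times.

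Of the single bins, centromeres and named items, 4 changed sign under at least 1 alternative. The bin from 3 to 4 kb was -0.025 with normexp, -0.020 with dim probes kept and -0.0019 to 0.010 leaving out a replicate. The promoter of DNM1 was 0.043 with normexp, and with loess the nearest used probes right of CEN5 and CEN15 were -0.21 and -0.11. A call was lost in 4 cases and gained in 2, each a nearest used probe of a centromere. No paired analysis was possible because the series has 1 group. Leaving out a replicate gives values with no test. Near the centromeres the signal over background limits the ratio, since 26 of the 66 core probes were dim.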
